A study of Drosophila melanogaster with 24 samples.

Results

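The immune-induced peptide genes outside the bomanin family are IM4, IM10, IM14 and IM18, chosen by symbol, and all 4 were listed in each of the 4 deposited tables, which together list 12506 genes. The libraries came from whole males of the laboratory line w1118. They covered 4 conditions named older food, older water, younger food and younger water, where older flies were 20 to 27 days old and younger flies 0 to 7 days old. Flies were kept on molasses food for 4 hr or on water for 2 hr before RNA extraction. For injured flies these were also the times after injury. Diet, time on the diet and time after injury therefore cannot be told apart. In each condition 3 libraries came from flies injured with repeated strikes of the high-impact trauma device, in which a released spring slams a vial of flies onto a padded surface, and 3 came from uninjured flies. The RNA was of whole flies, so the levels are sums over all tissues.

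The values used are the authors' mean levels, each on the log2 scale of counts per 1e6 counts (CPM), written logCPM, taken over the injured and uninjured libraries of a condition together. No effect of injury is given here, because the tables hold it only as the authors' own comparisons, which were not used. A mean over both kinds of library moves with the baseline of uninjured flies and with the response of injured flies, and these cannot be separated in it. No spread between libraries was available, so differences between conditions are descriptions with no test.

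Immune-induced molecules were first found as small peptides that appear in the hemolymph of flies after infection. Many are made in the fat body under control of the Toll pathway, in which extracellular proteases cleave the ligand Spatzle, the receptor Toll signals through Myd88, tube and pelle, and the inhibitor cactus releases the transcription factors Dif and dorsal. IM4 and IM14 are now called Daisho1 and Daisho2 (Dso1 and Dso2), short peptides known for a role in defense against filamentous fungi. IM10 is now called BaraA2, a Baramicin A gene whose precursor protein is cut into several peptides. IM18 encodes a further peptide found in the hemolymph of infected flies.

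The BDGP6 annotation places all 4 genes on chromosome arm 2R. IM4 and IM14 are neighbors on opposite strands with no annotated gene between them. Their coding sequences are short, at 126 bases for IM4 and 138 bases for IM14, on longest transcripts of 767 and 223 bases. IM10 lies near a copy of itself, CG33470 (BaraA1). Both copies have 771 coding bases, and their longest transcripts have 1160 bases for IM10 and 1159 bases for CG33470, each in 4 exons. The symbol IM10 is listed as a synonym of both copies, and the row was taken as the copy other than CG33470 because CG33470 has a row of its own. IM10 also shares 272 of its 1160 exon bases with CG18278 on the other strand. That gene had a logCPM of 0.85 in older food, 1.27 in older water and 0.49 in younger water, and was not listed in younger food. CG33470 likewise shares 272 of its 1159 exon bases with CG30059 on the other strand. Nothing states that reads were counted by strand. IM18 and CG10332 share a transcript. All 739 exon bases of IM18 are also annotated as CG10332, while the coding regions of these genes share 0 bases. The values of IM18 and IM10 are therefore uncertain as values of single genes.

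The number of reads behind each library is unknown, and each table was normalized on its own. As a check on the label of whole males, the list of male accessory gland genes was fully detected (5 of 5 genes in each table), and so was the testis list (5 of 5). The log2 of the summed CPM of the testis list was 8.23 and 7.66 in the older food and older water tables, below the 9.70 and 9.64 of the younger tables on the same diets. That of the accessory gland list was 10.6 in older food, against 12.2 in younger food. On water it was 10.4 in older flies, against 11.9 in younger flies. Hemocyte markers were fully listed (5 of 5) and their summed log2 level lay between 8.01 and 8.59. Female yolk and ovary genes were listed for 1 of 6 genes in older food, 2 of 6 in older water, 5 of 6 in younger food and 2 of 6 in younger water, with summed log2 levels of 3.97, 5.11, 7.28 and 3.77 in the same order. The ovary gene osk was not listed in any table. Of the other ovary genes, yl was listed only in younger food, with a logCPM of 2.19. The gene nos was listed only in younger food (0.835) and younger water (0.085). Younger food was thus the table with the highest level of yolk and ovary genes, and their part in the results below was not tested. The summed log2 level of the fat body list was 11.7 in older food, 11.7 in older water, 11.3 in younger food and 10.9 in younger water, over 4, 5, 6 and 6 listed genes of 7. Most of that sum was apolpp (listed as Rfabg), the main lipid carrier of the hemolymph, and the list did not move as one. In younger flies 4 of 6 listed genes were higher on food than on water, among them apolpp with a logCPM of 11.04 on food and 10.40 on water, while the lipase gene bmm (6.43 on food and 6.83 on water) and the lipid droplet gene Lsd-1 (7.85 on food and 8.41 on water) were lower. The larval gene Lsp1alpha was the only gene of that list with no row in any table.

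IM4 was the highest of the 4 genes in counts in every table. It had 472 CPM in older food, 398 in older water, 375 in younger food and 500 in younger water. These values put it above 96.0% to 97.3% of the genes listed in a table.

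IM14 had 123 CPM in older food, 118 in older water, 94.7 in younger food and 150 in younger water. Its transcript is short, and per kilobase it stood beside its neighbor. On the scale of CPM per kilobase of the longest transcript, IM14 had a level of 553 in older food, against 616 for IM4. In younger water the same quantity was 674 for IM14 and 652 for IM4. The order of the pair per kilobase depends on the transcript chosen, since the shorter transcript of IM4 (418 bases) gave it 1130 CPM per kilobase in older food and 1196 in younger water. Per kilobase of the longest transcript, both genes were above 98.0% to 98.7% of the genes with a length.

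IM10 had 46.3 CPM in older food, 47.7 in older water, 22.1 in younger food and 63.8 in younger water. It was the member whose level varied most between conditions, with a highest value 1.53 log2 units above its lowest. The copy CG33470 had 2151, 1818, 1079 and 2079 CPM in the same order of conditions and was 32.6-fold to 48.8-fold higher than IM10. The transcripts of these copies are almost equal in length, so this gap is also one per length. How reads were divided between the copies was not tested.

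IM18 had 19.9 CPM in older food, 28.1 in older water, 20.4 in younger food and 24.9 in younger water. Its logCPM and that of CG10332 differed by 0 in each table at the 3 decimals given, so the row does not separate the peptide from its partner on the shared transcript. Per kilobase of the longest transcript, IM18 had 27.0 CPM in older food and IM10 had 39.9. In younger food the order was the other way round, with 27.6 for IM18 and 19.1 for IM10. With the shortest transcripts IM18 was higher in older food too, with 69.6 CPM per kilobase against 51.1 for IM10, so the order of this pair also depends on the transcript.

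**Figure D1:**
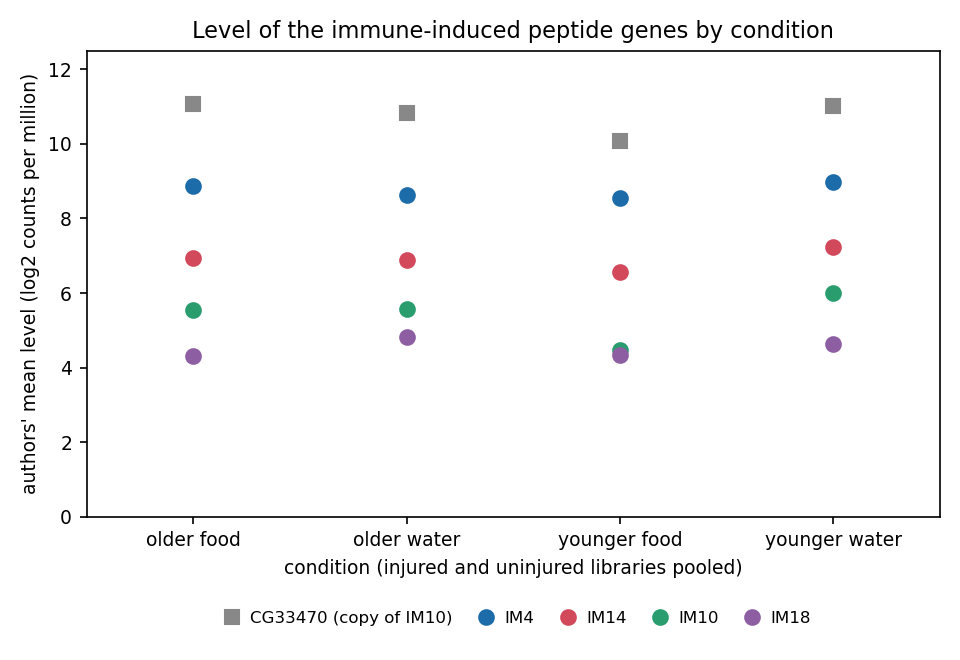
Level of each gene in each condition, as the authors' mean over injured and uninjured libraries (log2 CPM, not divided by length). Points are single pooled values with no error. IM4 stays 1.74 to 1.99 log2 units above IM14, and IM10 has its lowest point, a logCPM of 4.47, in younger food, where it nearly covers that of IM18 (4.35). The copy CG33470 is the highest point in each condition.

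Across conditions, IM4, IM14 and IM10 had their highest deposited logCPM in younger water and their lowest in younger food. The range between highest and lowest was 0.41 log2 units for IM4, 0.67 for IM14 and 1.53 for IM10. IM18 was highest in older water and lowest in older food, with a range of 0.49. Whether neighbors in these orders differ beyond the spread between libraries could not be measured. Under a scaling that sets the median of 11457 genes to be equal in all tables, the highest and the lowest condition of each of the 4 genes stayed as above. Under a scaling on 87 cytosolic ribosomal protein genes, only IM10 kept both. IM4 was then highest in younger food and lowest in older water, IM14 was highest in younger water and lowest in older water, and IM18 was highest in younger food and lowest in older food. The logCPM of IM4 minus that of IM14, a difference within a table that no scaling alters, was between 1.74 and 1.99 in the 4 conditions.

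Food and water were compared within each age, at 4 hr and 2 hr of feeding, which for injured flies were also the times after injury. In younger flies IM10 had a logCPM of 4.47 on food and 5.995 on water, a level 2.88-fold lower on food (log2 difference -1.53). It was the only 1 of the 4 members that was more than 2-fold lower, and 0.736% of the 12100 genes in both tables were more than 2-fold lower in this comparison. Only 0.190% of these genes had a more negative difference than IM10. The difference was -1.55 relative to the median gene and -1.05 relative to ribosomal protein genes. With the counts of IM10 and CG33470 added it was -0.96, just inside the 2-fold line, and that of CG33470 alone was -0.95. Of the 12100 genes, 0.851% were lower than the sum and 0.876% were lower than CG33470. IM14 had a difference of -0.67 with logCPM of 6.57 on food and 7.23 on water, and 2.51% of genes were lower than that. Relative to ribosomal protein genes it was -0.19. IM4 had a logCPM of 8.55 on food and 8.97 on water, a difference of -0.41 that was 0.06 relative to ribosomal protein genes. IM18 had a difference of -0.29, which was 0.18 on the ribosomal scale. No member was more than 2-fold higher on food, against 1.22% of all genes. The yolk gene Yp3 was higher on food than on water in younger flies, by a log2 difference of 1.78. The fat body list was mixed, with 4 of 6 genes higher on food and 2 lower, from -0.56 for Lsd-1 to 1.45 for Lsp2. Their part in the values of the members was not tested.

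In older flies the same comparison gave small values. IM10 had logCPM of 5.53 on food and 5.58 on water, with a difference of -0.04 that was 0.18 relative to ribosomal protein genes, and the sum of IM10 and CG33470 had a difference of 0.24. IM4 had logCPM of 8.88 on food and 8.64 on water, a difference of 0.25. That of IM14 was 0.07, or -0.08 relative to the median gene, so it has no direction that holds under each scaling. IM18 was the most negative member with logCPM of 4.32 on food and 4.81 on water, a difference of -0.49, or -0.64 relative to the median gene and -0.27 relative to ribosomal protein genes. Of all genes, 3.88% were lower than IM18 in this comparison. None of the 4 members was more than 2-fold higher or lower, against 2.55% of all genes higher and 0.604% lower. The median gene was itself 0.15 log2 units higher on food than on water in older flies.

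Older and younger flies were compared within each diet. On food, IM10 had a logCPM of 5.53 in older flies and 4.47 in younger flies, a difference of 1.06. That made it the only 1 of the 4 members more than 2-fold higher in older flies, where 5.64% of the 11806 genes in both tables were. The median gene was 0.17 higher in older food, and relative to it IM10 was at 0.89, below the 2-fold line. Relative to ribosomal protein genes, whose median difference was 0.82, IM10 was at 0.24. CG33470 had a difference of 0.996, and with the counts of IM10 and CG33470 added it was 0.997, both just inside the 2-fold line. IM4 and IM14 had differences of 0.33 and 0.38, which were -0.49 and -0.44 on the ribosomal scale. IM18 differed by -0.03, or by -0.21 relative to the median gene and -0.86 relative to ribosomal protein genes, where it was the most negative of the 4 members. No member was more than 2-fold lower, against 18.5% of all genes. Among genes of male tissues, 4 of 5 accessory gland genes and 4 of 5 testis genes were among those more than 2-fold lower in older food, and in whole flies fewer cells of a type and less RNA per cell cannot be told apart.

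On water, IM4, IM14 and IM10 were all lower in older flies under each of the 3 scalings. IM10 had logCPM of 5.58 in older flies and 5.995 in younger flies, a difference of -0.42. IM14 had 6.88 in older flies and 7.23 in younger flies, a difference of -0.35, and IM4 had 8.64 in older flies and 8.97 in younger flies, a difference of -0.33. IM18 was at 4.81 in older flies and 4.64 in younger flies, a difference of 0.17 that was -0.42 relative to ribosomal protein genes. No member passed the 2-fold line as deposited, against 3.44% of all genes higher and 17.9% lower. Relative to ribosomal protein genes IM10 was at -1.01 and passed it, and IM14 was at -0.94 and IM4 at -0.92. The values of IM4, IM14 and IM10 lay well inside the range of other genes, since between 26.4% and 29.0% of the 11531 genes were lower than each of them. The ribosomal scale moves all genes alike, so the 26.4% of genes lower than IM10 passed the 2-fold line on it too.

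The age difference on food minus that on water was 0.66 for IM4, 0.73 for IM14, 1.49 for IM10, 1.19 for CG33470 and -0.20 for IM18. These values rest on all 4 tables, and whether they exceed the spread between libraries was not tested. Each table enters 2 of the 4 comparisons above, so the comparisons are not independent of each other.

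**Figure D2:**
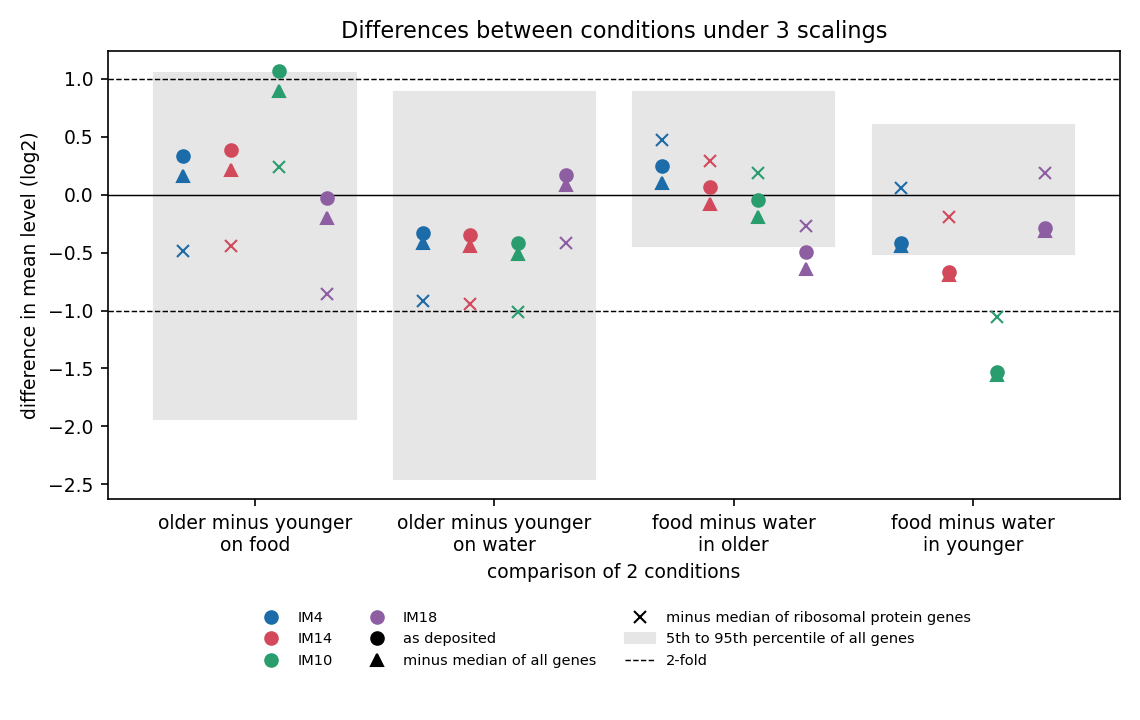
Difference in mean level between pairs of conditions (log2) for IM4, IM14, IM10 and IM18 under 3 scalings of the tables. Gray boxes span the 5th to 95th percentile of all genes in both tables as deposited, and dashed lines mark a 2-fold difference. The boxes were not moved for the other 2 scalings. IM10 on food against water in younger flies lies below the box and beyond the line under each scaling, while IM4, IM14 and IM18 in the same comparison are below 0 as deposited and close to 0 or above it on the ribosomal scale, except IM14 at -0.19.

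Other genes of humoral immunity were counted for the same comparisons. The bomanins are Toll-dependent short peptides, and all 11 on the list were in all 4 tables. In younger flies 10 of the 11 were lower on food than on water and 2 were more than 2-fold lower, against 0.736% of all genes. Their median difference was -0.51, against -0.54 for the 4 members and 0.04 for all genes. On the ribosomal scale both medians were near 0, at -0.04 for the bomanins (7 of 11 lower, 1 of them more than 2-fold) and -0.06 for the members (2 of 4 lower). That scale raises every gene in this comparison, so at most 0.736% of all genes were more than 2-fold lower on it. The most negative bomanin was CG43202, at -1.99, and the only one above 0 was CG16836, at 0.10. In older flies the median of the bomanins was 0.00, that of the members 0.01 and that of all genes 0.15. With age on food, 10 of the 11 bomanins were above 0 and IM23 was at 0, with a median of 0.37, but 11 of 11 were below 0 on the ribosomal scale, where 3 of the 4 members were too. With age on water 8 of the 11 were below 0, with a median of -0.10, and 10 were on the ribosomal scale. That scale subtracts 0.82 on food and 0.59 on water, above the upper quartiles of all genes (0.505 and 0.407). Most of all genes were therefore below 0 on it in both comparisons. In deposited logCPM, 7 of the 11 bomanins were highest in younger water and 8 were lowest in younger food, the conditions in which IM4, IM14 and IM10 had their extremes. On the ribosomal scale 7 were still highest in younger water but 0 were lowest in younger food.

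Antimicrobial peptide genes, of which the cecropins, attacins and diptericins are classic targets of the Imd pathway and Drs of the Toll pathway, were highest in another condition. Of 13 in all 4 tables, 12 were highest in older water and 11 lowest in younger food, or 9 and 7 on the ribosomal scale. In older flies 13 of 14 were lower on food than on water, 6 of them more than 2-fold (against 0.604% of all genes), with a median of -0.79. In younger flies the median was -0.89 and 6 of 13 were more than 2-fold lower, against 0.736% of all genes. On the ribosomal scale these medians were -0.57 and -0.41, and 6 genes were still more than 2-fold lower at each age. That scale raises every gene in both comparisons, so at most 0.604% and 0.736% of all genes were. The most negative gene of the list in both ages was CecC, at -2.82 in older flies and -2.61 in younger flies. The highest was Drs in older flies, at 0.45, and Dpt in younger flies, at 0.05. With age the median gene was 0.17 higher on food and 0.09 higher on water. On food, 13 of 13 antimicrobial peptide genes were higher in older than in younger flies (8 of 13 on the ribosomal scale), from 0.01 for Drs to 2.42 for Def. On water, 13 of the 14 were (11 of 14 on the ribosomal scale), up to 2.46 for AttD, and the exception was Drs, with a difference of -0.85. IM4, IM14 and IM10 had negative differences in that comparison as well.

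The 17 genes of the Toll pathway list encode receptors, proteases and signaling proteins upstream of such peptides. Their deposited medians were smaller in size than those of the antimicrobial peptide genes in each comparison. They were smaller in size than those of the bomanins only on food against water in younger flies. None of the 17 genes was more than 2-fold higher or lower between the diets at either age. Few of all genes were, with 2.55% higher and 0.604% lower on food in older flies. In younger flies these shares were 1.22% and 0.736%. In younger flies 13 of the 17 were lower on food, with a median of -0.28 against 0.04 for all genes. The most negative was cact, which encodes the inhibitor cactus, at -0.96. In older flies 17 of 17 were lower on food, from -0.59 for cact to -0.002 for tub. Their median was -0.29, against 0.145 for all genes. On the ribosomal scale the direction in younger flies turned, with 12 of 17 higher on food and a median of 0.20, and in older flies 10 of 17 were lower, with a median of -0.06. With age, 15 of 17 were higher in older flies on food and 14 of 17 on water. On the ribosomal scale 2 and 6 of the 17 were, where most of all genes were lower too. As deposited, the median gene was itself higher in older flies, by 0.17 on food and 0.09 on water. The recognition protein gene PGRP-SD had the largest difference with age in this list, at 1.09 on food and 1.37 on water. On food 2 of the 17 were more than 2-fold higher in older flies, against 5.64% of all genes, but 0 were on the scale of the median gene. On the ribosomal scale 0 were more than 2-fold higher and 2 more than 2-fold lower. The lower quartile of all genes, at -0.53 on food as deposited, was past the 2-fold line on that scale too. On water 1 of the 17 was more than 2-fold higher, against 3.44% of all genes, as it was on the scale of the median gene, but 0 were on the ribosomal scale. The lowest of the list in both was the protease gene grass, at -0.70 on food and -0.24 on water.

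**Figure D3:**
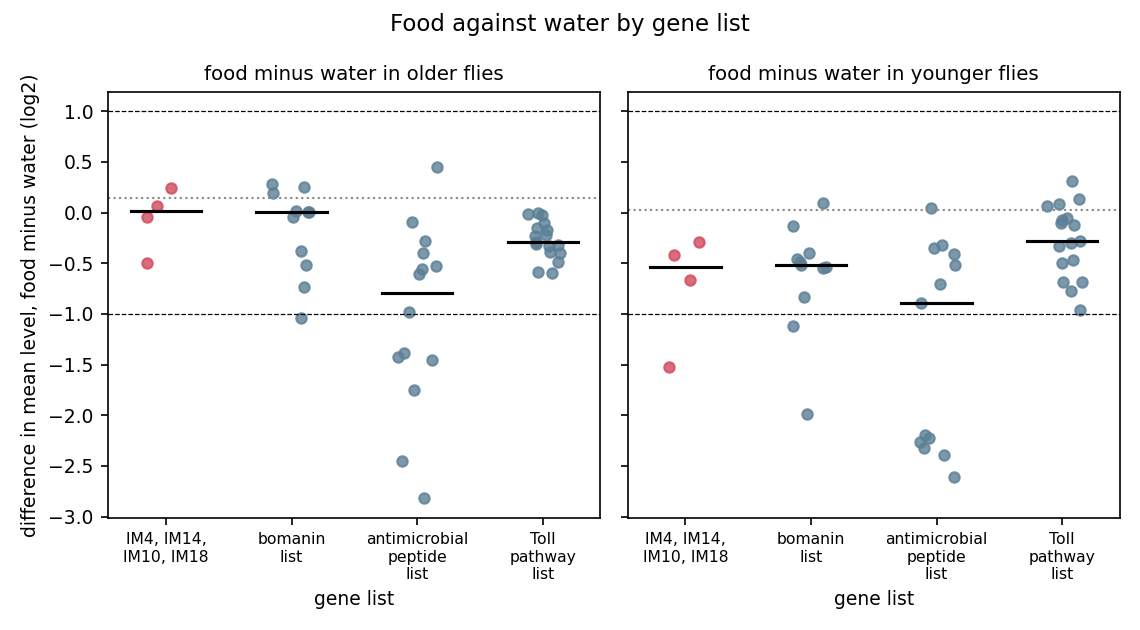
Difference in mean level of food minus water (log2) for the 4 members and 3 lists of immune genes, in older flies on the left and younger flies on the right. Each point is a gene, black lines are list medians, the dotted line is the median of genes in all 4 tables and dashed lines mark 2-fold. The member and bomanin medians are near 0 in older flies and at -0.54 and -0.51 in younger flies, while the antimicrobial peptide genes have medians of -0.79 in older and -0.89 in younger flies.

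The genes whose pattern over the 4 conditions was most like that of a member were found by the distance between logCPM values centered on each gene's own mean, among 11304 genes. With 4 points per gene, many genes lie close to any pattern, so the names are a description of these tables. For IM14 they were Cyp9b2 (distance 0.07 log2 units), CG9806 (0.11) and the bomanin IM3 (0.12). IM14 took place 87 in the order of likeness to IM4, and IM4 took place 32 in the order of likeness to IM14. For IM4 the closest were CG10300, CG1299 and CG18233, all at 0.06. For IM10 they were CG15254 (0.10), CG43349 (0.15) and CG14219 (0.25). For IM18 they were its transcript partner CG10332 (0), CG5984 (0.06) and CG9928 (0.07). The other members were far down the order of likeness to IM18, with IM14 in place 1773, IM4 in place 2539 and IM10 in place 7879. IM10 was further down than IM18 in the orders for IM4 (place 7765 against 3904) and IM14 (place 4754 against 1074). In the order of likeness to IM10, IM14 took place 89, IM4 place 551 and IM18 place 1345.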

How the data were processed

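Reads of 24 mRNA libraries (8 groups of 3) were trimmed by the authors with Skewer, aligned with STAR 2.4.2a, turned into expected counts with RSEM 1.2.22, filtered for low or empty genes and compared in edgeR 3.10.5 (versions and the build dm3 are from the submitters' processing notes). Each of the 4 tables the authors deposited holds, per gene, a mean level (logCPM, on the log2 scale, over the injured and uninjured libraries of a condition) and the authors' comparison of injured with uninjured flies (a fold change, a likelihood ratio, a p-value and an FDR). The comparison columns were not used. A count test per library had been planned and was not run, since 0 columns hold values per library. The older water table has 292 empty rows, which were left out. The depth per library is unknown.

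Differences between tables were taken from the deposited logCPM as it stands, because each table was normalized separately, and again after subtracting the median difference of 11457 genes in all 4 tables or of 87 genes with symbols of RpL or RpS and a digit. A gene was counted beyond 2-fold. Filters were a logCPM of at least 3 in both tables (background only) and a mean logCPM of at least 1 for likeness. The BDGP6 annotation is another build than dm3, so it was used only for names, overlaps, neighbors and transcript lengths (12362 of 12506 symbols), and no coordinates are given. Named genes are the members, genes that overlap a member, CG33470 as the annotated copy of IM10 (protein identity was not computed), the 3 genes closest in pattern to each member, and the extremes of each list. The markers osk, yl, nos, Lsp1alpha, Yp3, apolpp and bmm were named after their values were seen. The members and lists were chosen with earlier results of these data known. The calculation was tested on simulated tables. Python 3.11.15, numpy 2.4.6, pandas 2.3.3 and matplotlib 3.10.9 were used.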

Additional observations from a re-analysis of the deposited data

How the results depend on the processing

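The 16 member differences were recomputed under the scaling on the median of 11457 genes, where 14 kept their direction and their side of the 2-fold line, and under the scaling on ribosomal protein genes, where 8 did. On the scale of the median gene the difference of IM14 on food against water in older flies turned to -0.079. On the ribosomal scale the sign turned for IM4 (-0.49) and IM14 (-0.44) in older against younger food, for IM18 in older against younger water (-0.42), for IM10 on food against water in older flies (0.18), and for IM4 (0.061) and IM18 (0.18) on food against water in younger flies. Adding CG33470 to IM10, chosen after seeing the data, turned the value on food against water in older flies to 0.24. The sum was at 0.997 in older against younger food and at -0.96 on food against water in younger flies, both inside the 2-fold line. Members more than 2-fold higher in older than younger food numbered 1 as deposited and 0 under either other scaling, because IM10 was then at 0.89 or 0.24. On water, 1 member, IM10 at -1.01, was more than 2-fold lower in older flies on the ribosomal scale, against 0 as deposited. The 26.4% of all genes that were lower than IM10 in that comparison passed the line on this scale too. At a 1.5-fold line, 2 members, IM10 and IM14, were lower on food than on water in younger flies. Ranks per kilobase differed from ranks in counts by 5 or more percentage points in 12 of 16 cases. Of the 3 genes named as most like a member, the largest deviation in place of distance kept 2 for IM4, 1 for IM14, 3 for IM10 and 2 for IM18. Restricting the background to genes with a logCPM of at least 3 gave 12.0% in place of 18.5% lower with age on food, 8.84% in place of 17.9% lower with age on water, 1.46% in place of 2.55% higher on food in older flies and 0.774% in place of 1.22% higher on food in younger flies. The 1.5-fold line gave 19.9% higher with age on food, 14.6% higher with age on water, 15.9% higher and 2.57% lower on food in older flies, and 5.36% higher and 3.61% lower on food in younger flies. No paired analysis was possible because the tables hold no values per library, and count tests, leaving out replicates and filters on counts were not run for the same reason. The libraries' depth and spread are not known, so no value here has an error.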

Other observations

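Rows that repeat each other, as IM18 and CG10332 do, were found for 124 of the 11457 genes listed in all 4 tables (1.08%), counted as genes whose 4 logCPM values equal those of another gene at 3 decimals. Among the 9219 genes with a mean logCPM of at least 3 there were 90 (0.976%).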
